A study of Mus musculus with 6 samples.

Results

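The genes described here are 9 genes that TGF-beta signalling turns on or that restrain it: Smad7, Skil, Ski, Pmepa1, Ldlrad4, Tgfbi, Nox4, Tgfb1i1 and Cdkn2b. They were found by symbol among the 56748 genes of each count table, all 9 were present as a single row, and all 9 were among the 18514 genes that passed the filter on low counts. RNA was sequenced from whole tibia, after the marrow had been flushed out, in 3 Col1a1+/- libraries and 3 wild-type (WT) libraries, all from female mice aged 12 weeks. Col1a1 is the gene of the alpha 1 chain in type I collagen, and the series presents the heterozygote as a model of osteogenesis imperfecta type I, the form of brittle bone disease usually due to too little type I collagen. Anti-TGF-beta treatment appears in the title of the series but in none of the labels of these libraries, and genotype is the only contrast. The labels give no strain and no description of the allele, and leave it unsaid whether the samples are separate animals, so the spread behind each p-value may be technical.

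TGF-beta is stored in bone matrix in a latent form and is set free when bone is resorbed. Its receptors phosphorylate SMAD2 and SMAD3, which join SMAD4 in the nucleus and turn on target genes, and several of those targets feed back on the pathway. SMAD7 blocks the receptor and brings ubiquitin ligases to it, SKI and its relative SnoN (from Skil) repress transcription at SMAD-bound genes, and the membrane proteins made from Pmepa1 and Ldlrad4 hold SMAD2 and SMAD3 away from the receptor.

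For 4 of the 9 genes the RefSeq promoter table (build GRCm38.p6) holds the sequence from 250 bases before the start of the gene to 50 bases after it. The promoters of Tgfbi (chr13:56609336-56609635, plus strand), Cdkn2b (chr4:89310983-89311282, minus strand) and Ski (chr4:155222486-155222785, minus strand) are printed because they differ in the SMAD-type motifs they hold. Capitals mark CAGAC, the SMAD box that SMAD3 and SMAD4 bind, and GGCGCC, a SMAD-type site called the GC site here. Both were searched on both strands, and no matches of the motifs overlapped.
Tgfbi: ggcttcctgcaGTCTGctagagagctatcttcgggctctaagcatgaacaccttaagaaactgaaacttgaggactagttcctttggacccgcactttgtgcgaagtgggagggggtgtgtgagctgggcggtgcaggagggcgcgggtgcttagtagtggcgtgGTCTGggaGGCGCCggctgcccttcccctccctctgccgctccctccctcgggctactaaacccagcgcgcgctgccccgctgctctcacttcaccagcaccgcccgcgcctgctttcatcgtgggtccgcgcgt
Cdkn2b: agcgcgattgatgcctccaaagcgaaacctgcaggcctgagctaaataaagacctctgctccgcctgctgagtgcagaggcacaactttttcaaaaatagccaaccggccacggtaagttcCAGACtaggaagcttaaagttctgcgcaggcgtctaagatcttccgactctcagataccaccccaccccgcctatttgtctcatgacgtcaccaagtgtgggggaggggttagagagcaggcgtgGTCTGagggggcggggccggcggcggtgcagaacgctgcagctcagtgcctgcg
Ski: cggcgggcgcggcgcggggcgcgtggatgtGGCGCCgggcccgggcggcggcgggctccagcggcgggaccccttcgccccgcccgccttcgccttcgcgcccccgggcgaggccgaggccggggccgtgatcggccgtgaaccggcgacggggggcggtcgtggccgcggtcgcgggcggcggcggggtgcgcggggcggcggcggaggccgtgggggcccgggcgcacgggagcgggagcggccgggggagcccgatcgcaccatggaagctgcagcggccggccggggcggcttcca
The Tgfbi window held 2 SMAD boxes and 1 GC site, which lay 3 bases beyond one of the boxes. The Cdkn2b window held 2 SMAD boxes, and the Ski window, in which 85.3% of bases were G or C, held 1 GC site. The Nox4 window held 1 SMAD box. None of the 4 windows held the SMAD palindrome GTCTAGAC or the AP-1 motif TGANTCA. The SMAD box is present in 49.6% of the 32851 promoters of the table and the GC site in 11.9%, whereas the palindrome is in 0.213% and the AP-1 motif in 7.81%. These matches describe letters in a window and are not evidence of binding.

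In each library 26.8 to 32.4 M reads were counted in genes, with each mate of a pair counted as 1. The mean was 29.3 ± 2.82 M in Col1a1+/- and 30.5 ± 1.67 M in WT (SD, n = 3 each). The bone genes Bglap, Ibsp and Dmp1 were abundant in every library, as bone should have them. Col1a1 itself did not check the labels: it stood at 61149, 52880 and 59598 counts-per-million (CPM) in Col1a1+/- and 36810, 61347 and 54799 CPM in WT, which overlap (0.18 with an SE of 0.31 on the log2 scale, edgeR adjusted p = 0.78). A list of 24 skeletal muscle genes, all of them detected in every library, took 1.93% to 3.91% of counts in Col1a1+/- and 6.16% to 7.75% in WT, with 10 of the 24 lower by edgeR and 0 higher. Lists of osteoblast, osteocyte, osteoclast and chondrocyte markers took a larger share in every Col1a1+/- library than in any WT library. By edgeR 6 of 12 osteoblast and 4 of 8 chondrocyte genes were higher and 0 lower, where 1.43% of all tested genes were higher. Of the 9 tested osteocyte genes and the 10 osteoclast genes 0 were called. Of 7 smooth muscle and pericyte markers 1 was higher (Cspg4) and 1 lower (Myh11) by edgeR, and the list's smaller share of counts in Col1a1+/- came with Des, which skeletal muscle also makes, at 513 CPM in Col1a1+/- and 1558 CPM in WT. Tendon and fibroblast, erythroid, endothelial and adipocyte shares overlapped between genotypes. A list of 9 neutrophil genes took 0.583% of counts in WT replicate 1, against 0.0982% to 0.163% in the Col1a1+/- libraries and 0.139% and 0.144% in the other WT libraries, so that library stood apart. WT replicate 1 also had the smallest osteoblast share, 1.9%, against 2.62% and 2.29% in the other WT libraries. In whole tissue, fewer cells of a type and less RNA per cell cannot be told apart.

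None of the 9 genes passed the test between genotypes, but 5 of them lay higher in all 3 Col1a1+/- libraries than in all 3 WT libraries, each by less than 1.3-fold. These were Smad7, Skil, Ski, Pmepa1 and Tgfb1i1, that is, 4 of the 5 feedback inhibitors and the adaptor gene. By edgeR's quasi-likelihood test with Benjamini-Hochberg adjustment over all tested genes, 0 of 9 had an adjusted p under 0.05, where 4.34% of all tested genes did. At an unadjusted p under 0.05 there were 4 (Smad7, Skil, Pmepa1 and Tgfb1i1), where 22.8% of all genes had one. Of the other tools run on all libraries, DESeq2 called 1 gene, Smad7 (adjusted p = 0.0423), and 12.1% of all genes, and limma-voom called 0 and 5.17% of all genes. Groups that do not overlap in the higher direction were found for 5 of 9 genes, and for 14% of all tested genes (28.6% in either direction). The median log2 fold change of the 9 genes was 0.21, beside -0.0074 for all tested genes, with 8 of the 9 above 0. The 9 genes were chosen with earlier results of these data known, so these counts and this median are not independent evidence. Muscle RNA was lower and osteoblast RNA higher in the same Col1a1+/- libraries; the values with a muscle term in the fit are given with the other settings at the end.

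**Figure D1:**
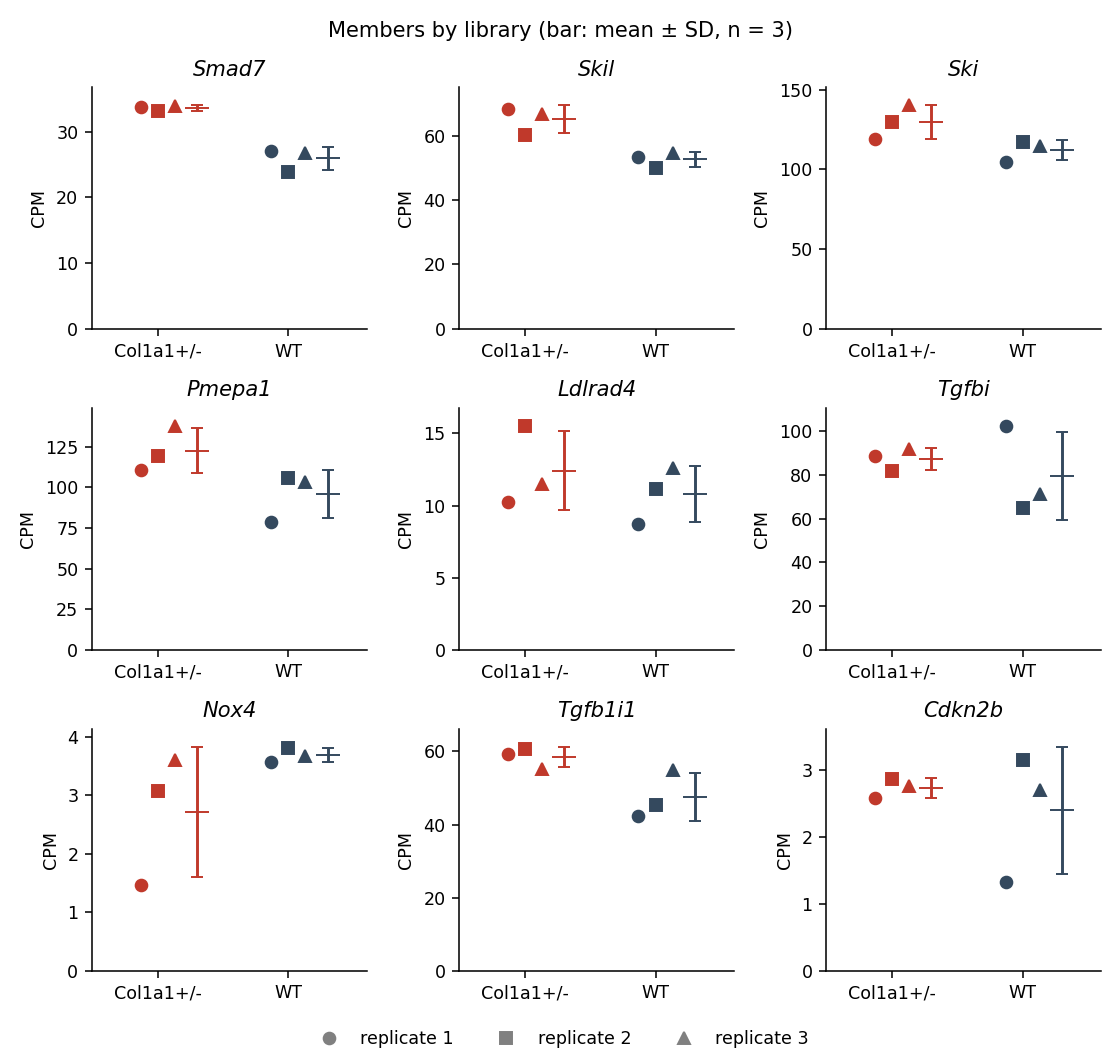
Level of each gene (vertical axes, CPM, each from 0) in the 3 Col1a1+/- libraries (red, left) and the 3 WT libraries (dark, right), with the mean and SD beside the points and the replicate shown by the marker. Smad7, Skil, Ski, Pmepa1 and Tgfb1i1 part the genotypes without overlap, Nox4 has 1 low Col1a1+/- library at 1.47 CPM and Cdkn2b 1 low WT library at 1.33 CPM.

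Smad7 (ENSMUSG00000025880; chromosome 18, 75500600 to 75529006, GRCm39, plus strand; all gene positions are on this build), which encodes the inhibitory SMAD, came closest to the threshold. It stood at 33.8, 33.1 and 33.9 CPM in Col1a1+/- and at 27.1, 23.9 and 26.7 CPM in WT. The 3 Col1a1+/- libraries lay within 1 CPM of each other and above all WT libraries, averaging 33.6 ± 0.429 CPM in Col1a1+/- and 25.9 ± 1.78 CPM in WT (SD, n = 3 each). The fold was 1.3 (0.37 with an SE of 0.10 on the log2 scale, 95% interval of the fold 1.1 to 1.52, edgeR adjusted p = 0.0706; exact permutation p = 0.1, the smallest that 3 against 3 allows). WT replicate 1 was the library rich in neutrophil RNA and lowest in osteoblast share. Without it, Smad7 passed the threshold at a log2 fold change of 0.44 (edgeR adjusted p = 0.0352), as did Tgfbi, where 9.26% of all genes were called. With any other library left out Smad7 did not pass, with edgeR adjusted p up to 0.203.

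Skil (ENSMUSG00000027660; chromosome 3, 31149207 to 31176726, plus strand) and Ski (ENSMUSG00000029050; chromosome 4, 155238532 to 155307049, minus strand) encode the paired co-repressors, and SnoN is known to be degraded quickly when TGF-beta signals and then made anew from the induced gene. Skil stood at 68.3, 60.1 and 66.8 CPM in Col1a1+/- and 53.3, 49.9 and 54.5 CPM in WT, with no overlap. Its fold was 1.24 (0.31 with an SE of 0.10 on the log2 scale, edgeR adjusted p = 0.104). For Ski the libraries read 119, 130 and 140 CPM in Col1a1+/- and 105, 117 and 114 CPM in WT. The lowest Col1a1+/- value lay only just above the highest WT value, and the log2 fold change of 0.21 (SE 0.11) had an adjusted p of 0.281 by edgeR.

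The number of Skil reads per Ski read is free of any scaling of the libraries, and stood at 0.574, 0.464 and 0.476 in Col1a1+/- libraries and 0.509, 0.426 and 0.477 in WT libraries. The genotypes overlapped, with mean ratios of 0.505 ± 0.0605 in Col1a1+/- and 0.471 ± 0.0415 in WT (SD, n = 3 each; exact permutation p = 0.6). The ratio therefore gave no difference between the co-repressor genes larger than the spread between libraries, and its direction rested on Col1a1+/- replicate 1, without which the log2 of the ratio between genotypes was -0.0017.

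Pmepa1 (ENSMUSG00000038400; chromosome 2, 173066251 to 173118326, minus strand), one of the membrane proteins that hold SMAD2 and SMAD3, stood at 111, 119 and 138 CPM in Col1a1+/- and 78.8, 105 and 103 CPM in WT. All Col1a1+/- libraries were above all WT libraries, and WT replicate 1 was lowest (fold 1.28, or 0.35 with an SE of 0.14 on the log2 scale, edgeR adjusted p = 0.174). With the neutrophil score as a covariate the log2 fold change of Pmepa1 was 0.11 (edgeR adjusted p = 0.664). Its relative Ldlrad4 (ENSMUSG00000024544; chromosome 18, 68066328 to 68401701, plus strand) read 10.3, 15.5 and 11.5 CPM in Col1a1+/- and 8.74, 11.1 and 12.6 CPM in WT. These overlapped, with a log2 fold change of 0.20 (SE of 0.20, edgeR adjusted p = 0.616), and 0.010 without Col1a1+/- replicate 2, the highest library. The Ldlrad4 count is uncertain, because 52.1% of its exon length lies opposite other genes, chiefly Fam210a, and reads that overlap several genes were not counted. Fam210a, singled out for this overlap, stood at 25.8 ± 3.64 CPM in Col1a1+/- and 37.8 ± 7.03 CPM in WT (SD, n = 3 each; log2 fold change -0.55, edgeR adjusted p = 0.078).

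Reads of Pmepa1 per read of Ldlrad4 numbered 10.8, 7.66 and 12 in Col1a1+/- and 9.01, 9.48 and 8.2 in WT. The Col1a1+/- libraries spanned the whole WT range, so the ratio did not part the genotypes (mean 10.1 ± 2.23 in Col1a1+/- and 8.89 ± 0.648 in WT, SD, n = 3 each; exact permutation p = 0.5).

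Tgfbi (ENSMUSG00000035493; chromosome 13, 56757336 to 56787375, plus strand) encodes a secreted protein that binds collagens and integrins. It stood at 88.7, 81.7 and 91.7 CPM in Col1a1+/- and at 102, 64.8 and 71.4 CPM in WT, where replicate 1 was above every other library. With all libraries the log2 fold change was 0.14 (SE of 0.17, edgeR adjusted p = 0.684). Without WT replicate 1 it was 0.39 (edgeR adjusted p = 0.0406), and without WT replicate 2 it was 0.0084. WT replicate 1 also held the most neutrophil RNA and the smallest osteoblast share, as given above. With the neutrophil score as a covariate Tgfbi stood at 0.47 (edgeR adjusted p = 0.083), whereas with the muscle score it was -0.32.

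**Figure D2:**
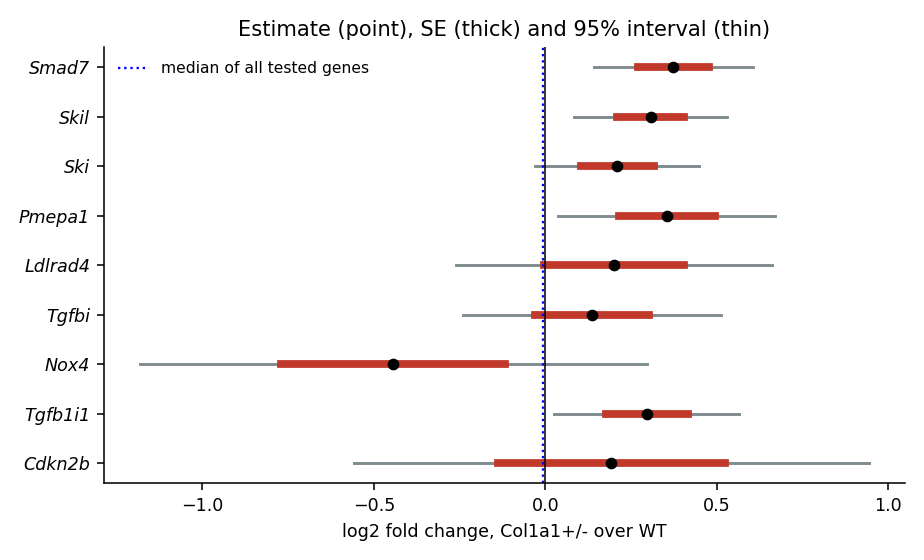
Log2 fold change of each gene, Col1a1+/- over WT (horizontal axis), with its SE as a thick line and its 95% interval as a thin line; the dotted line is the median of all tested genes, -0.0074. The intervals of Smad7, Skil, Pmepa1 and Tgfb1i1 lie above 0, and that of Cdkn2b, the widest on the higher side, ends at 0.94.

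Tgfb1i1 (ENSMUSG00000030782; chromosome 7, 127845984 to 127854871, plus strand) encodes Hic-5, an adaptor of focal adhesions that responds to TGF-beta. It read 59.3, 60.7 and 55.3 CPM in Col1a1+/- and 42.4, 45.3 and 55 CPM in WT. The highest WT library lay just under the lowest Col1a1+/- library, and the fold was 1.23 (0.30 with an SE of 0.12 on the log2 scale, edgeR adjusted p = 0.179).

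Cdkn2b (ENSMUSG00000073802; chromosome 4, 89224536 to 89229276, minus strand) encodes the cell cycle inhibitor p15, through which TGF-beta halts the cycle in many cells. It was counted from few reads, with 86, 82 and 78 reads in Col1a1+/- and 43, 87 and 78 reads in WT. In CPM this was 2.58, 2.87 and 2.75 in Col1a1+/- and 1.33, 3.15 and 2.7 in WT, so that the groups overlapped and WT replicate 1 alone was low. The log2 fold change was 0.19 (SE of 0.33, edgeR adjusted p = 0.785), and without WT replicate 1 it was -0.069.

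Nox4 (ENSMUSG00000030562; chromosome 7, 86895304 to 87047918, plus strand), a TGF-beta target that makes an oxidase producing hydrogen peroxide, was the single gene of the 9 below 0. Its counts were 49, 88 and 102 reads in Col1a1+/- and 115, 105 and 106 reads in WT. These correspond to 1.47, 3.08 and 3.6 CPM in Col1a1+/- and 3.56, 3.8 and 3.67 CPM in WT. The WT libraries hardly differed, the highest Col1a1+/- library overlapped them, and Col1a1+/- replicate 1 alone was far below the rest. The log2 fold change was -0.44 (SE of 0.33, edgeR adjusted p = 0.469), and without that library it was -0.12.

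The 95% intervals of the folds give the sizes that the spread between libraries leaves possible in the fit with TMM scaling and no covariate. For Smad7, Skil, Ski, Pmepa1 and Tgfb1i1 the upper ends lay between 1.37 and 1.59 and the lower ends between 0.979 and 1.1. For Nox4 the interval ran from 0.441 to 1.23 and for Cdkn2b from 0.68 to 1.92. In this fit a doubling of any of the 9 genes lay outside its interval, and a halving lay inside that of Nox4. Other settings gave values outside these intervals. With the muscle score the log2 fold change of Ldlrad4 was 0.99 (SE 0.36), and with scaling on osteocyte genes that of Smad7 was -0.36 (SE 0.42).

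Per length of exon, the 9 genes fell into tiers that were alike in both genotypes. Tgfbi, Ski and Pmepa1 were the most abundant, at 23.2, 23.3 and 24.9 CPM per kb in Col1a1+/- and 21.1, 20.1 and 19.5 CPM per kb in WT, and their order among themselves was within the spread of the libraries. Tgfb1i1 followed at 10.5 CPM per kb in Col1a1+/- and 8.52 in WT. Smad7 stood at 7.43 and Skil at 6.71 CPM per kb in Col1a1+/-, against 5.73 and 5.42 CPM per kb in WT, and the libraries of these neighbours overlapped in WT but not in Col1a1+/-. Ldlrad4 (2.31 CPM per kb in Col1a1+/- and 2.01 in WT) and Cdkn2b (1.97 in Col1a1+/- and 1.72 in WT) overlapped in both genotypes, and the Ldlrad4 level is a low estimate for the reason given above. Nox4 was lowest, at 0.321 CPM per kb in Col1a1+/- and 0.434 in WT. Among all tested genes in WT, Tgfbi had a level per kb above 88.6% of genes and Nox4 above 15.3%.

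**Figure D3:**
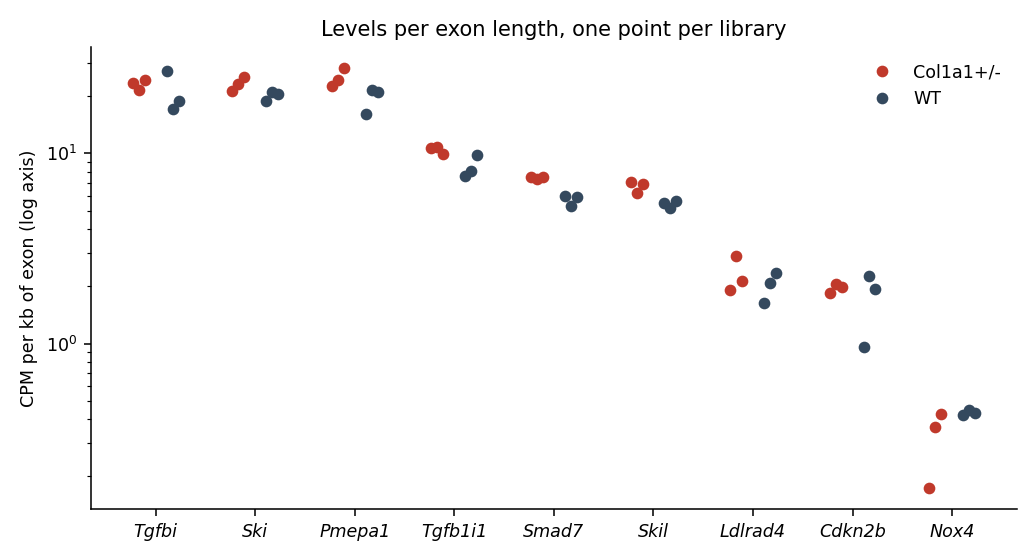
Level of each gene per kb of exon (vertical log axis, CPM per kb) in each Col1a1+/- library (red, left) and each WT library (dark, right). Genes are ordered by their WT mean, from Tgfbi at 21.1 to Nox4 at 0.434 CPM per kb, and the order below the top tier is the same in Col1a1+/-.

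The genes differed in how they moved from library to library. The closest pair was Smad7 and Skil, whose log2 CPM values, each centred on its mean, differed by a root mean square of 0.0632 over the 6 libraries. Ski and Pmepa1 came next at 0.12. Nox4 was apart from all other members, at 0.488 or more from each, and Tgfbi and Cdkn2b, which stood on opposite sides of their means in WT replicate 1, were 0.58 apart. These distances are descriptions over libraries that share the genotype difference.

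Upstream of these genes, 19 ligands, receptors and latency proteins were tested, of which 0 rose and 1 fell (1.43% of all genes rose and 2.91% fell), with a median log2 fold change of 0.20. The one that fell was Itgb6, the integrin subunit that pairs with alpha v to activate latent TGF-beta, at 6.36 ± 2.61 CPM in Col1a1+/- and 16.4 ± 2.34 CPM in WT (log2 fold change -1.37, edgeR adjusted p = 0.0431). Thbs1, whose protein can also activate latent TGF-beta, stood at 627 ± 58.9 CPM in Col1a1+/- and 434 ± 11 CPM in WT (log2 fold change 0.53, adjusted p = 0.055). The latency protein gene Ltbp1 had a log2 fold change of 0.44 (adjusted p = 0.0581), and the ligand gene Tgfb2 one of -0.40 (adjusted p = 0.124). The ligand genes did not share a direction. Tgfb1 was higher in all Col1a1+/- libraries than in all WT libraries, with means of 151 CPM in Col1a1+/- and 115 CPM in WT. Its log2 fold change was 0.39 (edgeR adjusted p = 0.0619). Tgfb3 overlapped between genotypes, with a log2 fold change of -0.025 (edgeR adjusted p = 0.938).

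Among 14 tested genes for SMADs, their ligases, phosphatase and co-repressors, 0 rose and 2 fell, with a median of -0.0054. Of all tested genes 1.43% rose and 2.91% fell. Usp15, a deubiquitinase that stabilises the TGF-beta receptor by opposing SMAD7 and its ligases, stood at 63.4 ± 3.86 CPM in Col1a1+/- and 93.7 ± 7.83 CPM in WT (log2 fold change -0.56, edgeR adjusted p = 0.0306). Wwp1, a ubiquitin ligase that works with SMAD7, stood at 70.8 ± 15.2 CPM in Col1a1+/- and 128 ± 22.1 CPM in WT (log2 fold change -0.85, edgeR adjusted p = 0.0397). In the other direction the smallest p belonged to the deubiquitinase gene Usp11 (0.28, adjusted p = 0.235) and the co-repressor gene Tgif1 (0.22, adjusted p = 0.334). The muscle list was lower in the same Col1a1+/- libraries, as given above, and with the muscle score as a covariate edgeR called 0 of all 18514 genes (1127 at an unadjusted p under 0.05). Because the muscle share did not overlap between genotypes, that fit cannot tell muscle and genotype apart. The SE of Smad7, for example, was 0.10 without the score and 0.24 with it.

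Of 17 other TGF-beta response genes tested, 7 rose and 0 fell, with a median of 0.64 (1.43% of all tested genes rose and 2.91% fell). The 7 were Fn1, Ccn2, Lox, Snai1, Snai2, Timp1 and Adam12. The list of response genes was chosen with earlier results of these data known, so its direction is not independent evidence. Fn1, which encodes the matrix protein fibronectin, and Ccn2, a secreted matrix-associated protein, had the smallest p (log2 fold changes 1.10 and 0.79, adjusted p = 0.0232 and 0.0239 by edgeR). In the other direction stood the smooth muscle actin gene Acta2 (-0.29, adjusted p = 0.226) and the clock-linked repressor gene Bhlhe40 (-0.26, adjusted p = 0.229). Several of the genes that rose are made by osteoblasts and other matrix-forming cells, and the osteoblast list took 4.21% to 4.41% of counts in Col1a1+/- and 1.9% to 2.62% in WT; its part in these values was not tested. Of the genes in the 3 lists 10 were called with all libraries, 0 without Col1a1+/- replicate 1, WT replicate 2 or WT replicate 3, 1 list gene was called without Col1a1+/- replicate 3, and 13 without WT replicate 1.

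**Figure D4:**
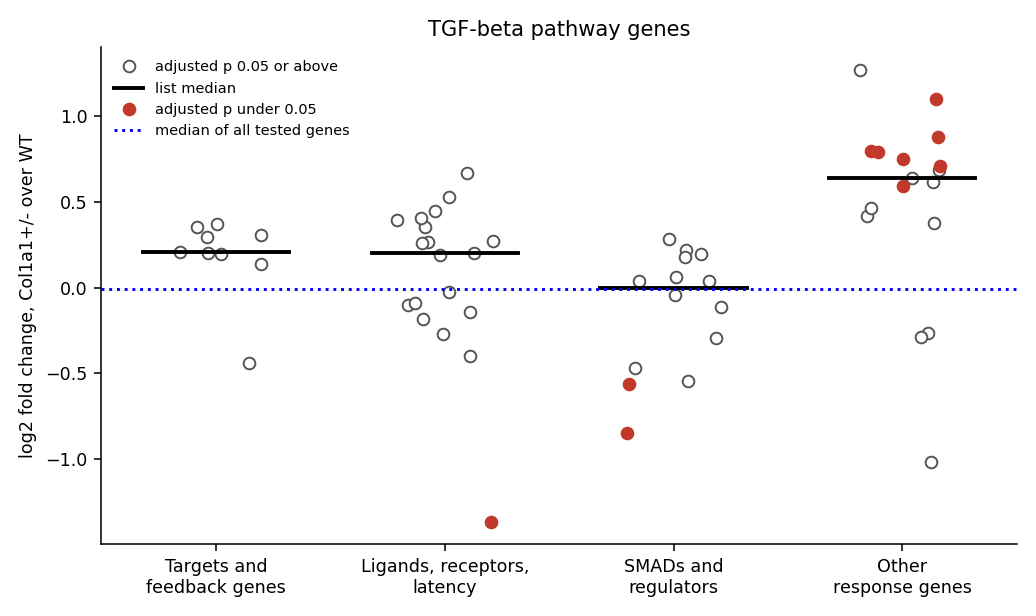
Log2 fold change, Col1a1+/- over WT (vertical axis), of each tested gene in 4 groups of TGF-beta pathway genes, with genes of adjusted p under 0.05 filled and each group's median as a bar. The 9 target and feedback genes have a median of 0.21 and no filled point, and the other response genes have a median of 0.64 and 7.

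Directions were also compared under other scalings and with covariates. With libraries made equal in 9 osteocyte genes, the median of all genes moved to -0.72. The osteocyte list took 0.173% to 0.232% of counts in Col1a1+/- and 0.105% to 0.159% in WT. All 9 target and feedback genes were below 0 in this scaling, between -1.2 and -0.33. Their SEs were 0.40 to 0.53 and none was called (edgeR adjusted p of 0.106 or more). Of the 9, 8 were above the median of all genes. With library totals or DESeq2 size factors in place of TMM, 8 of 9 were above 0. With the muscle score as a covariate 7 of 9 were above 0 and none was called (adjusted p of 0.796 or more by edgeR). Muscle share and genotype cannot be told apart in that fit. Smad7 stood at 0.35 (SE 0.24), Ski at 0.19 (SE 0.24) and Skil at 0.18 (SE 0.22) with the muscle score. Larger values than without the score came for Ldlrad4 at 0.99 (SE 0.36), Tgfb1i1 at 0.68 (SE 0.24) and Cdkn2b at 0.72 (SE 0.78). Pmepa1 was slightly larger, at 0.37 (SE 0.32) with the score and 0.35 without, and Nox4 stood at -0.52 (SE 0.73). With the neutrophil score 6 of 9 were above 0 and none was called. Ski stood at 0.093 and Tgfb1i1 at 0.19 in that fit, and Nox4 at -0.74 (SE 0.42).

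**Figure D5:**
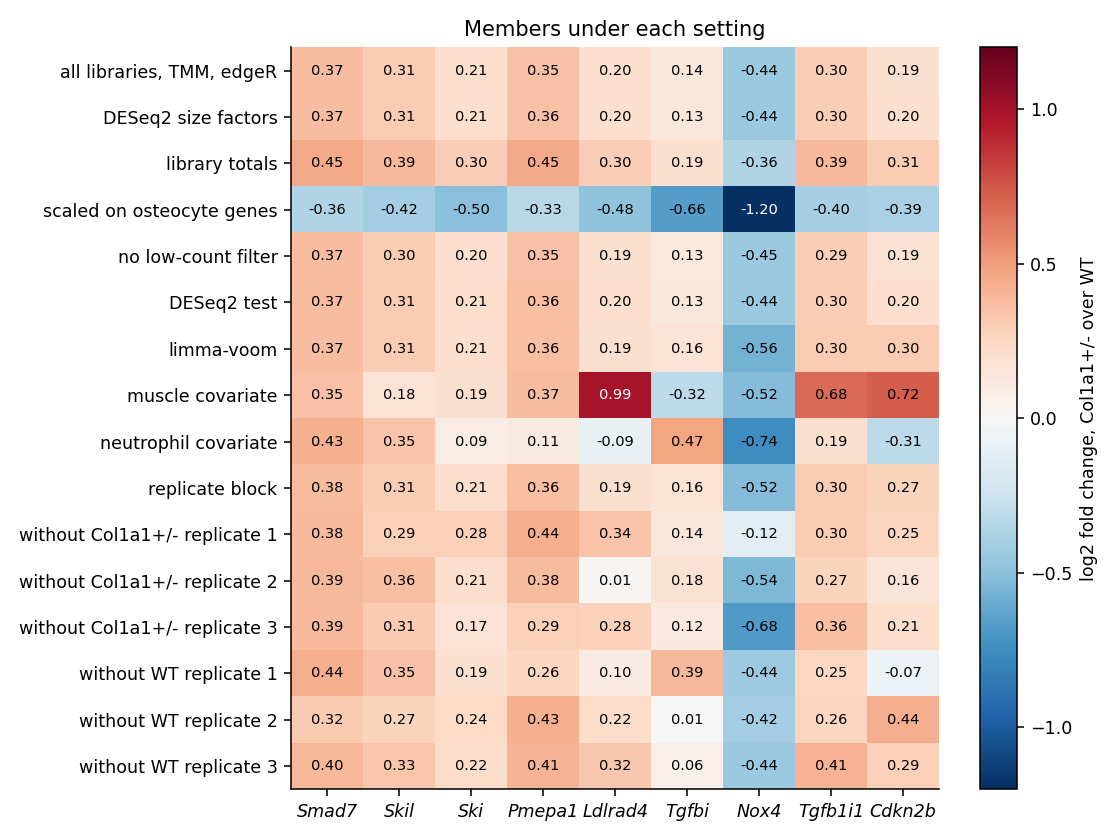
Log2 fold change, Col1a1+/- over WT, of each gene (columns) under each setting (rows), with red above 0 and blue below. Smad7, Skil, Ski, Pmepa1 and Tgfb1i1 are above 0 in every row except the one scaled on osteocyte genes, and Nox4 is below 0 in every row.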

How the data were processed

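RNA of flushed, frozen and disrupted tibia was made into poly-A libraries, per the labels' protocols. For each library the authors deposited 1 file of unnormalized counts. Trimmomatic 0.39, HISAT2 2.2.1 and SAMtools 1.20 were used, per the submitters' processing notes, and featureCounts 2.0.3 with the Ensembl 107 annotation of GRCm39, per the file headers. The header's command sets no strand and counts each mate of a pair as 1 read (of counts between 1 and 20, 61.8% to 64.2% were even), and leaves out reads that overlap several genes or map to several places.

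Symbols were matched by gene identifier to a GENCODE table (91.8% of identifiers), and coordinates are those of the deposited files. After filterByExpr and TMM scaling (factors 0.892 to 1.1), genotypes were tested in edgeR 4.0.16 (R 4.3.3; quasi-likelihood F test, two-sided, no covariate), and genes under a Benjamini-Hochberg adjusted p of 0.05 were called. SE follows from the log2 fold change and F, and 95% intervals use the test's degrees of freedom. CPM is scaled by TMM, and log2 CPM has a prior count of 2. Ratios were tested by exact permutation, two-sided. Scripts were tested on simulated data. Pairs of libraries of a genotype differed by 25.5 to 88.2 times counting variance, so none was a copy. Alternatives were other scalings, DESeq2 1.42.0, limma-voom 3.58.1, no filter, covariates, a replicate block and leaving out each library.

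The members and lists were chosen with earlier results of these data known. Genes named are all members, Col1a1, the 2 smallest p in each direction of 3 pathway lists, and the gene nearest each member. The marker genes Bglap, Ibsp, Dmp1, Cspg4, Myh11 and Des are named outside that rule. Fam210a, Tgfb1 and Tgfb3, and the called genes Lox, Snai1, Snai2, Timp1 and Adam12, were named after their values were seen. The gene nearest to Ski in its values over the libraries is not reported here.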

Additional observations from a re-analysis of the deposited data

How the results depend on the processing

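Against 803 genes called (265 higher, 538 lower), edgeR called 1327 with library totals (588 higher, 739 lower), 1980 with scaling on osteocyte genes (3 higher, 1977 lower), 1472 without the low-count filter, 0 with the muscle covariate and 126 with the replicate block; DESeq2 called 2248, and leaving out 1 library gave 0 (without Col1a1+/- replicate 1 or WT replicate 3), 8 (WT replicate 2), 44 (Col1a1+/- replicate 3) and up to 1766 (WT replicate 1). Of the 9 members 0 were called, except 1 by DESeq2 and 0 to 2 with 1 library left out. Of the pathway lists 10 genes were called, 16 with library totals, 5 with osteocyte scaling, 16 without the filter, 19 by DESeq2, 0 with the muscle covariate, 1 with the replicate block and 0 to 13 with 1 library left out. Osteocyte scaling turned Smad7 to -0.36, Skil to -0.42, Ski to -0.50, Tgfbi to -0.66, Pmepa1 to -0.33, Ldlrad4 to -0.48, Tgfb1i1 to -0.40 and Cdkn2b to -0.39; the covariates turned Tgfbi to -0.32 (muscle), Ldlrad4 to -0.091 and Cdkn2b to -0.31 (neutrophil). With 1 library left out Cdkn2b ranged from -0.069 to 0.44, the log2 of the Skil to Ski ratio between genotypes from -0.0017 to 0.16, and that of Pmepa1 to Ldlrad4 from 0.051 to 0.35. The cause of these changes was not tested. No pairing of the samples by replicate number was shown: deviations of same-numbered samples correlated at 0.11, 0.041 and -0.12 over 18514 genes. Of the 6 samples 3 correlated best with their own number. With 3 samples per genotype these correlations cannot exclude pairing. With the block the Skil to Ski ratio differed by 0.034 on average and 0 members were called. Counts of 43 to 115 reads limit Nox4 and Cdkn2b.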

Other observations

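For each member, the gene with the most similar values over the 6 libraries was sought among 13606 others with a mean of at least 1 CPM, as the smallest root mean square difference in centred log2 CPM. Given for 8 of the 9 members, it was Lfng for Smad7 (0.028), Itga9 for Skil (0.022), Abhd2 for Tgfbi (0.032), Ick for Pmepa1 (0.03), AI429214 for Ldlrad4 (0.053), Igsf9 for Tgfb1i1 (0.035), Aplp1 for Cdkn2b (0.079) and Cd96 for Nox4 (0.14). Within 0.1 lay 201 genes for Smad7, 451 for Skil and 799 for Ski, but 4 for Cdkn2b and 0 for Nox4. With 6 libraries and so many genes such nearness says nothing of shared function or control.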
